A study of Mus musculus with 15 samples.

Results

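The genes described here are 10 widely used readouts of the epithelial-mesenchymal transition (EMT): Cdh1, Epcam and Grhl2 as epithelial genes, Vim and Cdh2 as mesenchymal genes, and Snai1, Snai2, Zeb1, Zeb2 and Twist1 as transcription factors of the transition. They were chosen by name, with earlier results of these data known. Each symbol was matched to its Ensembl ID through GENCODE M21, and all 10 were found among the 55471 gene IDs of the count tables. On GRCm38, Vim (ENSMUSG00000026728.9) lies at chr2:13573927-13582826, Snai1 (ENSMUSG00000042821.7) at chr2:167538195-167542814 and Twist1 (ENSMUSG00000035799.6) at chr12:33957671-33959829. Cdh1 (ENSMUSG00000000303.12) lies at chr8:106603351-106670246 and Epcam (ENSMUSG00000045394.9) at chr17:87635979-87651129, and all 5 are protein-coding genes on the plus strand.

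In EMT, cells that are held in a sheet by E-cadherin junctions lose those contacts, take up vimentin filaments and often N-cadherin, and become migratory. The SNAIL, ZEB and TWIST proteins drive the change, in large part by repressing Cdh1 and other epithelial genes, while GRHL2 maintains the epithelial state. In the mouse embryo the transition occurs at gastrulation, when epiblast cells leave their epithelium through the primitive streak, a step that needs Snai1. Embryoid bodies (EBs) are aggregates of stem cells in suspension that go through parts of this program.

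Poly(A) RNA was counted in 15 libraries of E14 mouse embryonic stem cells (mESCs) or their EBs, in 5 groups of 3. NSD1 is a methyltransferase of histone H3 lysine 36, and in the NSD1-dTAG knock-in line it carries a degron tag, through which the small molecule dTAG-13 directs the protein to degradation. EBs of the NSD1-dTAG line were grown for 6 days in a serum medium with 500 nM dTAG-13 (dTAG-13 EBs) or without it (nontreated EBs). NSD1-dTAG mESCs were kept in 2i/LIF medium without dTAG-13, and wild-type (WT) E14 mESCs in the same medium had 500 nM dTAG-13 for 72 h or no treatment. All 6 EB libraries thus carry the tag, and no untagged EBs with dTAG-13 were analysed here. The labels name biological replicates and nothing further of how they were grown, and how many clones the tagged line represents is not given in the sources used here, so p-values speak of the spread among these libraries only.

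Gene counts per library were 18704591 to 29103958. Nsd1, the targeted gene, had 329, 306 and 230 CPM (counts scaled to a common library total) in dTAG-13 EBs, against 261, 243 and 209 CPM in nontreated EBs. It had 163, 346 and 340 CPM in NSD1-dTAG mESCs, 392, 393 and 248 CPM in WT mESCs with dTAG-13 and 309, 396 and 387 CPM in nontreated WT mESCs. Its transcript was not called in any comparison by edgeR (adjusted p = 0.351 in EBs), and the protein, on which dTAG-13 acts, was not measured. In each group 1 library stood apart, with the shortest read-weighted exon length of its group (4.99 to 5.50 kb in these 5 libraries): library 3 of both EB groups and of WT mESCs with dTAG-13, and library 1 of NSD1-dTAG and of nontreated WT mESCs. Summed CPM of 6 pluripotency markers were 1030 to 1060 in dTAG-13 EBs, 1290 to 1470 in nontreated EBs, 3270 to 3480 in NSD1-dTAG mESCs, 3120 to 3300 in WT mESCs with dTAG-13 and 3080 to 3200 in nontreated WT mESCs.

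SNAIL and ZEB proteins bind E-box motifs of the form CACCTG. The 250 bases before the start of Snai1 (chr2:167537945-167538194), Twist1 (chr12:33957421-33957670) and Epcam (chr17:87635729-87635978) are shown because Snai1 and Twist1 fell together with dTAG-13 while Epcam did not. All 3 are plus-strand sequences of RefSeq promoters on GRCm38.p6, with CACCTG and its reverse complement CAGGTG in capitals.
Snai1: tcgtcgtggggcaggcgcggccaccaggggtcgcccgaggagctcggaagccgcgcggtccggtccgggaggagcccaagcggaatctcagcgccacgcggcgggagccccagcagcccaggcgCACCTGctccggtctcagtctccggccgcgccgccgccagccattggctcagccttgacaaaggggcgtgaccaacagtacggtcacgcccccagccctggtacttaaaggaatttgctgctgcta
Twist1: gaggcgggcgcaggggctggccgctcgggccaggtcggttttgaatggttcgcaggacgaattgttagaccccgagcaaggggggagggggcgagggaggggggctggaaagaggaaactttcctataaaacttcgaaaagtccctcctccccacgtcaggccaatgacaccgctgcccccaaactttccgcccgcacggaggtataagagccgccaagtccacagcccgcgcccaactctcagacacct
Epcam: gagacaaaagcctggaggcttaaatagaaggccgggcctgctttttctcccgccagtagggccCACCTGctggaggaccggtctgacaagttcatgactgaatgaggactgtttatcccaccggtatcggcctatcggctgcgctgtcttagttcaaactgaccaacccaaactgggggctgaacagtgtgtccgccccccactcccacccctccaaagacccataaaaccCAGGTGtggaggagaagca
Searching both strands, the motif began 126 bases before the start of Snai1, and 187 and 19 bases before the start of Epcam. It was not in the Twist1 or Vim window nor in any of 4 windows of Zeb2. No motif positions are given for Cdh1, Cdh2, Snai2, Zeb1 or Grhl2, of which Cdh2 and Zeb1 also fell with dTAG-13. Of all 32851 RefSeq promoter windows, each of 300 bases (250 before to 50 after the start), 20.2% hold the motif and 2.88% hold at least 2, so these matches describe the letters and no binding.

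**Figure D1:**
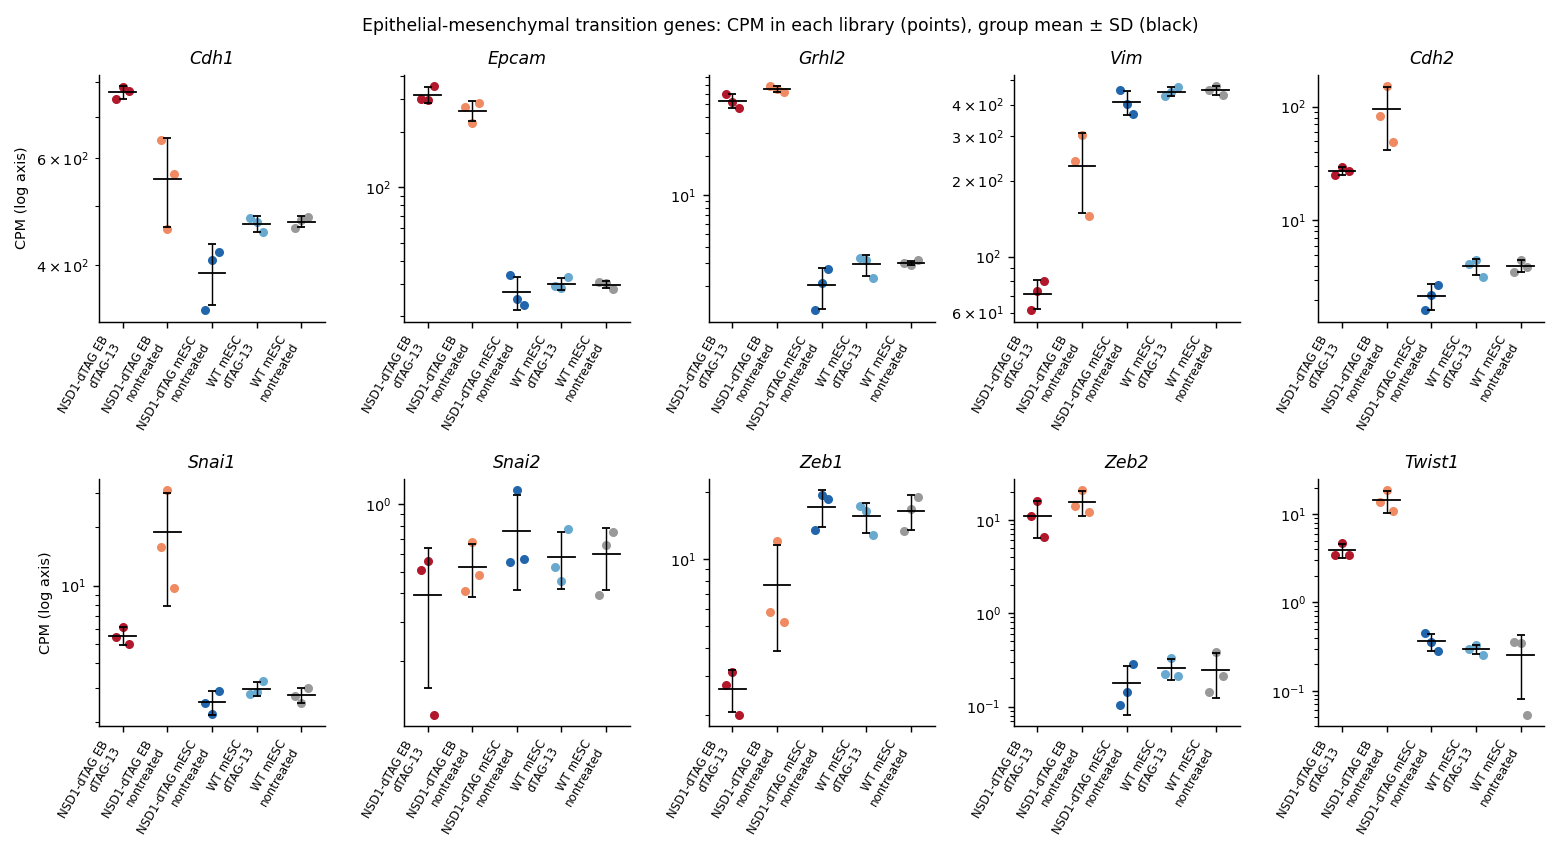
CPM of each EMT gene (y axis, logarithmic, with its own range for each gene) in each of the 15 libraries (points) of the 5 groups (x axis), with group means ± SD in black (n = 3). Vim, Cdh2, Snai1, Zeb1 and Twist1 sit lower in dTAG-13 EBs than in nontreated EBs without overlap, and Cdh2, Zeb2, Twist1, Epcam and Grhl2 are far higher in both EB groups than in mESCs.

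The first comparison sets nontreated EBs in serum medium against NSD1-dTAG mESCs of the same line in 2i/LIF. Spike-in counts were found in the mESC libraries only. Stage, medium and this difference in the libraries go together and cannot be told apart. Genes of both kinds rose. Of the 10 genes, 6 rose and 2 fell (edgeR quasi-likelihood test, Benjamini-Hochberg adjusted p below 0.05), in a comparison where 59.5% of the 15193 genes tested were called, 33.1% as higher and 26.3% as lower. The median log2 fold change of the 10 was 2.93, against 0.02 over all genes tested. The libraries of both groups did not overlap for 7 genes that were higher and 2 that were lower in EBs, as for 66.3% of all genes tested, 42.1% higher and 24.3% lower.

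Among the epithelial genes, Epcam, an adhesion protein of epithelial cell surfaces, had 272, 223 and 285 CPM in nontreated EBs, against 33.5, 24.8 and 23.1 CPM in NSD1-dTAG mESCs. All EB libraries were above all mESC libraries, and the gene rose 8.64-fold (log2 fold change 3.11 ± 0.19 SE, edgeR adjusted p = 4.6e-06). Grhl2, the Grainyhead-like factor that activates epithelial genes, had 68.9, 65.6 and 61.7 CPM in nontreated EBs, against 1.31, 2.12 and 2.73 CPM in NSD1-dTAG mESCs. It rose 29.1-fold (4.86 ± 0.23, edgeR adjusted p = 1.33e-06). Cdh1, which encodes E-cadherin, the adhesion molecule of epithelial junctions, had 641, 458 and 564 CPM in nontreated EBs, against 337, 408 and 421 CPM in NSD1-dTAG mESCs. These values do not overlap either, but the log2 fold change of 0.37 ± 0.15 did not pass the test (edgeR adjusted p = 0.0625). Without nontreated EB library 2, the lowest of its group, it was 0.50 and passed (edgeR adjusted p = 0.028).

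The mesenchymal genes went opposite ways. Cdh2, which encodes N-cadherin, had 83.3, 153 and 48.7 CPM in nontreated EBs, against 1.62, 2.19 and 2.73 CPM in NSD1-dTAG mESCs. It rose 39.5-fold (log2 fold change 5.31 ± 0.45, edgeR adjusted p = 2.51e-05), and the lowest EB library was far above the highest mESC library. Vim, which encodes the intermediate filament protein vimentin, had 239, 302 and 145 CPM in nontreated EBs, against 458, 401 and 368 CPM in NSD1-dTAG mESCs. Vim thus was abundant in the stem cells and fell in their EBs (-0.99 ± 0.25, edgeR adjusted p = 0.00869), with no overlap.

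Of the transcription factors, 3 rose. Snai1, the SNAIL factor of gastrulation, had 15.8, 30.9 and 9.70 CPM in nontreated EBs, against 2.51, 2.19 and 2.89 CPM in NSD1-dTAG mESCs (log2 fold change 2.75 ± 0.41, edgeR adjusted p = 5.49e-04). Twist1, a basic helix-loop-helix factor of mesoderm and neural crest, had 13.6, 18.8 and 10.7 CPM in nontreated EBs, against 0.447, 0.360 and 0.285 CPM in NSD1-dTAG mESCs (5.13 ± 0.30, edgeR adjusted p = 3.64e-06). Zeb2, a zinc finger and homeodomain repressor of Cdh1, had 14.1, 20.8 and 12.04 CPM in nontreated EBs, against 0.103, 0.144 and 0.285 CPM in NSD1-dTAG mESCs (6.32 ± 0.36, edgeR adjusted p = 3.24e-06). Twist1 and Zeb2 were close to absent from the stem cells, with 30 and 14 counts over the 3 NSD1-dTAG mESC libraries.

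Zeb1, the paralogue of Zeb2, fell while Zeb2 rose. It had 5.78, 12.1 and 5.20 CPM in nontreated EBs, against 13.5, 19.5 and 18.6 CPM in NSD1-dTAG mESCs (log2 fold change -1.30 ± 0.31, edgeR adjusted p = 0.00728). The highest EB library came close to the lowest mESC library without reaching it. Snai2, which encodes SLUG, stayed at the edge of detection, with 3 to 32 counts in each of the 15 libraries. Its log2 fold change of -0.67 ± 0.38 did not pass the test (edgeR adjusted p = 0.161).

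Other genes of the same functions were read from lists, which were also chosen with earlier results of these data known. Of 22 epithelial junction and polarity genes tested, 17 rose and 0 fell (median log2 fold change 2.96), led by the claudins Cldn6 (7.31 ± 0.18) and Cldn7 (5.58 ± 0.25) and the tricellular junction gene Lsr (3.27 ± 0.16). Of 17 epithelial regulators and keratins, 14 rose and 0 fell (median 2.08), among them the epithelial splicing factor Esrp1 (7.05 ± 0.20) and keratin gene Krt18 (6.07 ± 0.33). Mesenchymal and matrix genes rose as well, 13 of 19 against 2 that fell, with the smooth muscle gene Tagln at 144 ± 21.4 CPM in nontreated EBs and 0.0839 ± 0.0375 CPM in NSD1-dTAG mESCs (SD, n = 3 each). Pdgfra, a growth factor receptor of mesenchyme, rose by 4.65 ± 0.26.

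Of 14 regulators of the gastrulation EMT, 12 rose and 1 fell (median log2 fold change 2.99), with the signal genes Fgf8 at 8.24 ± 0.36 and Wnt3 at 8.51 ± 0.37. Among 9 other mesenchymal transcription factors 6 rose and 2 fell, and the SNAIL relative Snai3 rose by 4.24 ± 0.33 while the E-protein gene Tcf4 fell by 1.56 on the log2 scale. Of 9 cadherins and catenins tested beside the members, 7 rose and 1 fell, and Cdh6, with 0 counts in all NSD1-dTAG mESC libraries, reached 9.53 ± 0.852 CPM. Of 9 other intermediate filament and nuclear envelope genes, 7 rose and 2 fell, with Nes at 5.74 ± 0.20 and Des at 3.52 ± 0.15, in contrast to Vim. TGF-beta components had 7 rises and 1 fall among 12, with the inhibitor Smad7 at -1.35 ± 0.12, and the corepressors that SNAIL and ZEB factors recruit had 2 rises and 3 falls among 10. All values here passed the edgeR test (adjusted p below 0.05).

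The next comparison asks what changed when dTAG-13 was present during the 6 days of EB growth. Both mesenchymal genes and 3 of the 5 factors fell, while none of the 3 epithelial genes passed the test. Cdh1 and Grhl2 did pass in some alternative settings, given below. Vim, Cdh2, Snai1, Zeb1 and Twist1 fell by 2.96-fold to 3.72-fold, and 0 of the 10 genes rose. These 5 of 10 calls compare with 6.76% of the 15236 genes tested (edgeR quasi-likelihood test, adjusted p below 0.05), 2.78% as lower and 3.98% as higher. The median log2 fold change of the 10 genes was -1.04, against -0.01 over all genes tested. In these bulk libraries fewer cells of a type and less RNA per cell cannot be told apart.

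Vim had 61.2, 72.8 and 79.7 CPM in dTAG-13 EBs, against 239, 302 and 145 CPM in nontreated EBs. It fell 3.24-fold (log2 fold change -1.69 ± 0.24, edgeR adjusted p = 0.0106), and each dTAG-13 library was below each nontreated one. Cdh2 had 25.0, 29.3 and 27.4 CPM in dTAG-13 EBs, against 83.3, 153 and 48.7 CPM in nontreated EBs. It fell 3.51-fold (-1.81 ± 0.35, edgeR adjusted p = 0.0234), but in dTAG-13 EBs it stayed well above the 1.62 to 2.73 CPM of NSD1-dTAG mESCs. Vim did not: its dTAG-13 EB values were the lowest of all 15 libraries.

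Among the transcription factors, Twist1 had 3.48, 4.74 and 3.48 CPM in dTAG-13 EBs, against 13.6, 18.8 and 10.7 CPM in nontreated EBs. It fell 3.72-fold, the most of the 10 genes (log2 fold change -1.89 ± 0.23, edgeR adjusted p = 0.00683). Snai1 had 5.47, 6.16 and 5.02 CPM in dTAG-13 EBs, against 15.8, 30.9 and 9.70 CPM in nontreated EBs (-1.77 ± 0.37, edgeR adjusted p = 0.0305). Both groups were above the 2.19 to 2.89 CPM of NSD1-dTAG mESCs, and the dTAG-13 libraries lay close together while the nontreated ones spread 3.19-fold. Zeb1 had 2.74, 3.14 and 2.01 CPM in dTAG-13 EBs, against 5.78, 12.1 and 5.20 CPM in nontreated EBs (-1.56 ± 0.34, edgeR adjusted p = 0.0348). Like Vim, Zeb1 was lower in nontreated EBs than in mESCs and lower again in dTAG-13 EBs, where both comparisons share the 3 nontreated EB libraries.

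Zeb2 and Snai2 did not pass the test. Zeb2 had 10.9, 15.8 and 6.49 CPM in dTAG-13 EBs, against 14.1, 20.8 and 12.04 CPM in nontreated EBs, so the groups overlapped (log2 fold change -0.52 ± 0.31, edgeR adjusted p = 0.398). Zeb2 was nevertheless lower with dTAG-13 in each of the 3 pairs of same-numbered libraries, which deviated together from their group means. The labels do not state whether same-numbered libraries were grown together. With the replicate number as a block its log2 fold change was -0.56 ± 0.14 (edgeR adjusted p = 0.0519), and with the block and an offset for gene length it was called as lower (-0.66 ± 0.13, edgeR adjusted p = 0.0272). Snai2 had 0.508, 0.560 and 0.116 CPM in dTAG-13 EBs, against 0.410, 0.677 and 0.483 CPM in nontreated EBs (-0.42 ± 0.50, edgeR adjusted p = 0.697). With 3 to 19 counts per EB library, Snai2 has the widest SE of the 10 genes here, and a change smaller than that spread was not detectable at this depth.

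The epithelial genes differed by less. Cdh1 had 749, 786 and 773 CPM in dTAG-13 EBs, against 641, 458 and 564 CPM in nontreated EBs. All dTAG-13 libraries were above all nontreated ones (log2 fold change 0.45 ± 0.13, edgeR adjusted p = 0.0871). Epcam had 300.0, 297 and 355 CPM in dTAG-13 EBs, against 272, 223 and 285 CPM in nontreated EBs, again without overlap (0.27 ± 0.13, edgeR adjusted p = 0.286). Grhl2 had 59.8, 52.1 and 46.7 CPM in dTAG-13 EBs, against 68.9, 65.6 and 61.7 CPM in nontreated EBs (-0.33 ± 0.11, edgeR adjusted p = 0.117), the only epithelial gene of the 3 whose dTAG-13 values all lay lower. With the replicate block Cdh1 was called as higher (0.47 ± 0.11, edgeR adjusted p = 0.0476) and Grhl2 as lower (-0.33 ± 0.07, edgeR adjusted p = 0.0307). Cdh1 was also called as higher with DESeq2 (DESeq2 adjusted p = 0.027), with all 15 libraries in one fit (edgeR adjusted p = 0.0117) and without the low-count filter (0.0397). An offset for gene length also gave a call of Grhl2 as lower (edgeR adjusted p = 0.0362). Over the 10 genes the values of 6 lay lower and of 2 higher in dTAG-13 EBs without overlap, against 11.6% and 15.9% of all genes tested.

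**Figure D2:**
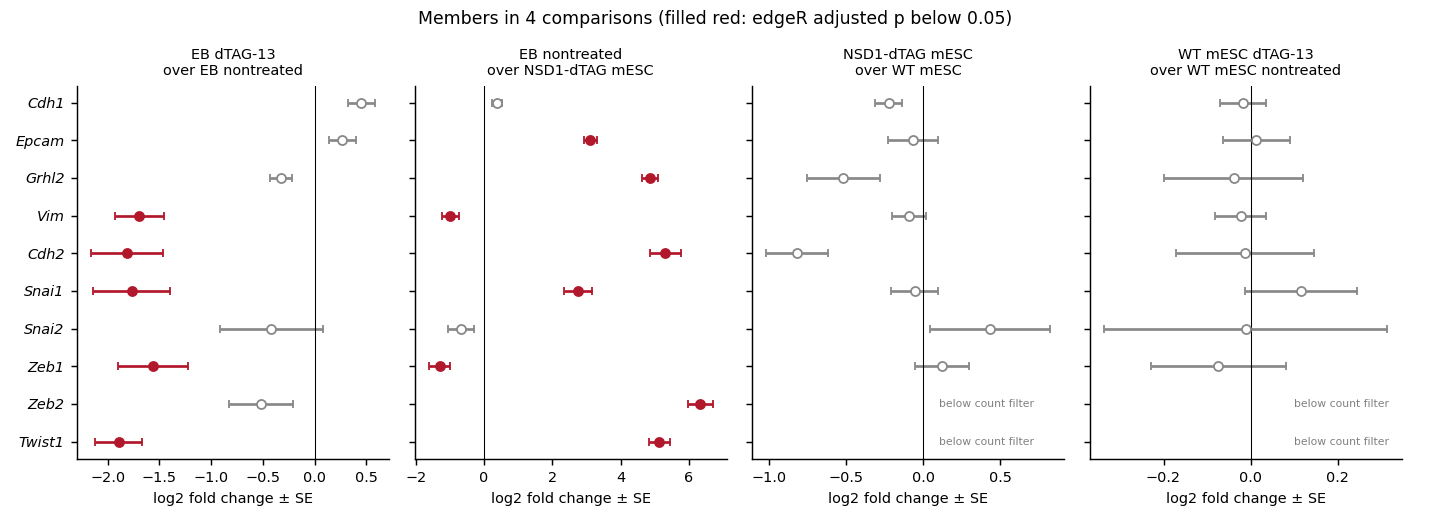
Log2 fold change ± SE (x axis, a separate range for each panel) of the 10 genes (y axis) in 4 comparisons, from edgeR, with adjusted p below 0.05 filled in red. In EBs with dTAG-13 the 5 red points lie between -1.89 and -1.56, while Cdh1, Epcam and Grhl2 lie within 0.45 of 0.

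The calls were not equally firm when each of the 6 EB libraries was left out in turn. Vim and Twist1 were called all 6 times. Cdh2 lost its call without nontreated library 1 (edgeR adjusted p = 0.0646), dTAG-13 library 1 (0.0879) or dTAG-13 library 2 (0.0638). Snai1 kept its call only without nontreated library 3 (edgeR adjusted p = 0.00699). Its adjusted p was 0.0723 and 0.0563 without nontreated libraries 1 and 2, and 0.105, 0.0785 and 0.0587 without dTAG-13 libraries 1, 2 and 3. Zeb1 likewise kept its call only without nontreated library 3 (edgeR adjusted p = 0.0213), with 0.0644 and 0.0764 without nontreated libraries 1 and 2 and 0.110, 0.0754 and 0.0654 without dTAG-13 libraries 1, 2 and 3. The sign held every time, with log2 fold changes of -2.08 to -1.23 for Snai1, -1.78 to -1.10 for Zeb1 and -2.12 to -1.31 for Cdh2. Without library 3 of both groups, the libraries that stand apart, all 5 were called (Vim at -2.03 ± 0.12, Cdh2 at -2.13 ± 0.25, Snai1 at -2.02 ± 0.29, Zeb1 at -1.62 ± 0.33 and Twist1 at -1.99 ± 0.20), and Grhl2 too (-0.28 ± 0.08). That fit called 3233 of all 15463 genes tested, 1581 of them as lower.

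The spread of the nontreated EBs followed a pattern across the genes. Library 2 was the highest of its group for Vim, Cdh2, Snai1, Snai2, Zeb1, Zeb2 and Twist1, and the lowest for Cdh1 and Epcam. Library 3 was the lowest for Vim, Cdh2, Snai1, Zeb1, Zeb2 and Twist1, and the highest for Epcam. It is also the nontreated EB library that stands apart, with the shortest read-weighted exon length. The part of that difference in the pattern was not tested. Snai1 and Cdh2 differed 3.19-fold and 3.13-fold between the highest and the lowest nontreated library. In dTAG-13 EBs the same ratios were 1.23 and 1.17, and Cdh1 varied by 2.44% in dTAG-13 EBs and 16.6% in nontreated EBs (SD as a share of the mean). Vim, Zeb1, Twist1 and Epcam also had the smaller ratio in dTAG-13 EBs. The other 3 genes spread more with dTAG-13, with ratios in dTAG-13 and nontreated EBs of 4.83 and 1.65 for Snai2, 2.43 and 1.72 for Zeb2, and 1.28 and 1.12 for Grhl2.

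**Figure D3:**
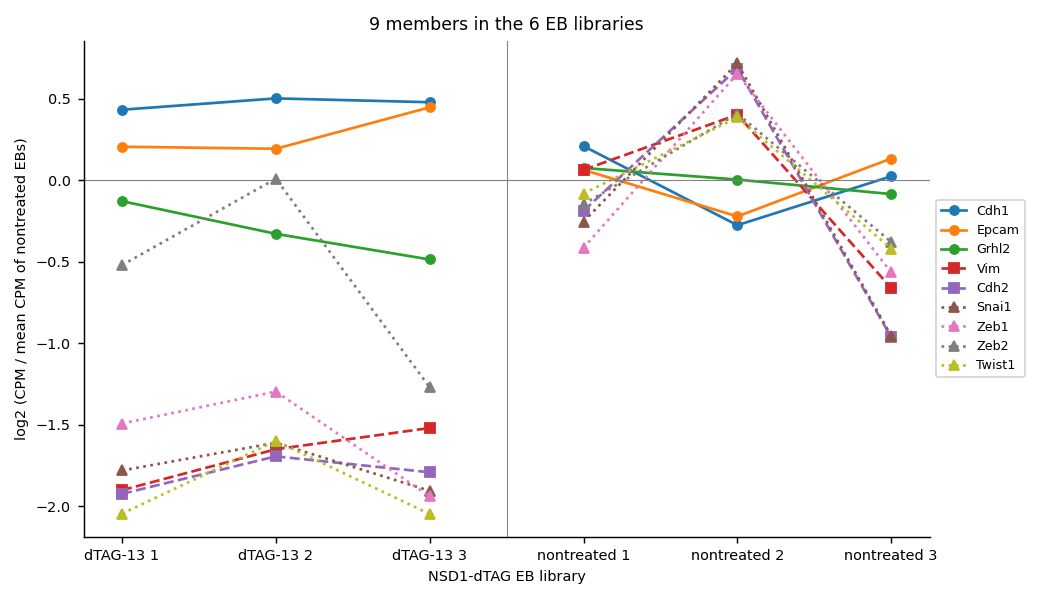
Log2 ratio of CPM to the mean of the nontreated EBs (y axis) for 9 of the genes in each of the 6 EB libraries (x axis). Lines join the values of 1 gene and carry no order. In nontreated library 2 the mesenchymal genes and factors lie above the group mean and Cdh1 and Epcam below it, and in all dTAG-13 libraries Vim, Cdh2, Snai1, Zeb1 and Twist1 lie below -1.

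Markers of primitive streak and mesoderm had their extremes in the same nontreated EB libraries. The summed CPM of 6 such markers were 55.3, 118 and 28.5 in dTAG-13 EBs, against 462, 751 and 291 in nontreated EBs. The sum was again highest in nontreated library 2 and lowest in nontreated library 3, which stands apart. It was 31.4 to 39.8 over the 9 mESC libraries, where Msgn1 was at 0 in all 3 groups. In dTAG-13 EBs it was highest in library 2 and lowest in library 3, as for Snai1, Snai2, Zeb1, Zeb2 and Twist1. Vim went otherwise there, highest in library 3, and Cdh2 was lowest in library 1. Of these 6, Eomes (log2 fold change -2.06 ± 0.38), Mixl1 (-3.19 ± 0.71), Mesp1 (-4.39 ± 0.84) and Msgn1 (-5.00 ± 1.04) fell with dTAG-13 (edgeR adjusted p below 0.05). The streak gene T, at 15.2 ± 17.0 CPM in dTAG-13 EBs and 251 ± 119 CPM in nontreated EBs (SD, n = 3 each), did not pass the test (-4.06 ± 1.01, edgeR adjusted p = 0.0526). The part of these markers in the fall of the 5 EMT genes was not tested.

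Other cell type markers gave less uniform values. The summed CPM of 8 extraembryonic endoderm markers were 223, 173 and 583 in dTAG-13 EBs, against 407, 315 and 462 in nontreated EBs, and 0 of the 8 were called. Of 6 pluripotency markers 4 fell, Nanog, Zfp42, Esrrb and Klf4. The 5 fibroblast or feeder markers summed to 14.6 to 22.6 CPM in dTAG-13 EBs and 15.8 to 27.7 CPM in nontreated EBs, with 0 called among 4 tested. Among trophoblast markers Cdx2, which posterior mesoderm also expresses, fell by 4.90 on the log2 scale and Hand1 fell by 2.80. Endothelial and blood markers had 1 fall among 4 tested, Cdh5, and neuroectoderm markers 1 among 3, Pax6. Their part in the result was not tested either.

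Most falls within the lists were of gastrulation regulators and mesenchymal factors. Of the 14 regulators of the gastrulation EMT, 6 fell and 0 rose (median log2 fold change -1.02), and beside Eomes, Mesp1 and Mixl1 they were Mesp2 (-2.23 ± 0.50), Fgf8 (-1.63 ± 0.39) and Wnt3 (-2.44 ± 0.54). Of 9 other mesenchymal transcription factors, 3 fell and 0 rose, the organizer gene Gsc (-3.43 ± 0.61), the mesoderm gene Foxc1 (-3.05 ± 0.61) and Twist2 (-1.96 ± 0.38), the paralogue of Twist1. The mesenchymal cadherin gene Cdh11 fell by 3.09 on the log2 scale. It was 1 fall against 1 rise among 18 mesenchymal and matrix genes, the rise being the matrix protease Mmp2 (0.41 ± 0.09), and the other 16 were not called.

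Of 22 epithelial junction genes 1 rose, the claudin gene Cldn3 (log2 fold change 0.91 ± 0.19), and 0 fell (median 0.12). Of 17 epithelial regulators and keratins 1 fell, the factor Elf3 (-0.72 ± 0.13), and 0 rose (median 0.20). Among 10 other cadherins and catenins, Cdh11 and the endothelial cadherin gene Cdh5 (-1.81 ± 0.32) fell and the delta-catenin gene Ctnnd2 rose (0.96 ± 0.13). Among 9 other intermediate filament and nuclear envelope genes only Nefl fell (-0.56 ± 0.12) and 0 rose, and among 12 TGF-beta components only Ltbp1 rose (0.60 ± 0.11) and 0 fell. None of 10 corepressors was called, with Kdm1a at 357 ± 8.28 CPM in dTAG-13 EBs and 353 ± 8.66 CPM in nontreated EBs (SD, n = 3 each). In each list the calls are by edgeR at an adjusted p below 0.05.

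The balance of the 2 cadherins and of Vim and Epcam was described per kilobase of merged exon, with no test. The log2 ratio of Cdh2 to Cdh1 was -5.64 ± 0.08 in dTAG-13 EBs, -3.51 ± 1.00 in nontreated EBs, -8.32 ± 0.22 in NSD1-dTAG mESCs, -7.72 ± 0.22 in WT mESCs with dTAG-13 and -7.72 ± 0.15 in nontreated WT mESCs (SD, n = 3 each). Cdh1 was thus the higher cadherin in every group, 49.9-fold in dTAG-13 EBs and 13.1-fold in nontreated EBs on average. The log2 ratio of Vim to Epcam was -3.27 ± 0.13 in dTAG-13 EBs, -1.35 ± 0.71 in nontreated EBs and 2.82 ± 0.13 in NSD1-dTAG mESCs. Vim was above Epcam in all stem cells and below it in all EBs, and within the EBs the 2 groups did not overlap in either ratio.

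**Figure D4:**
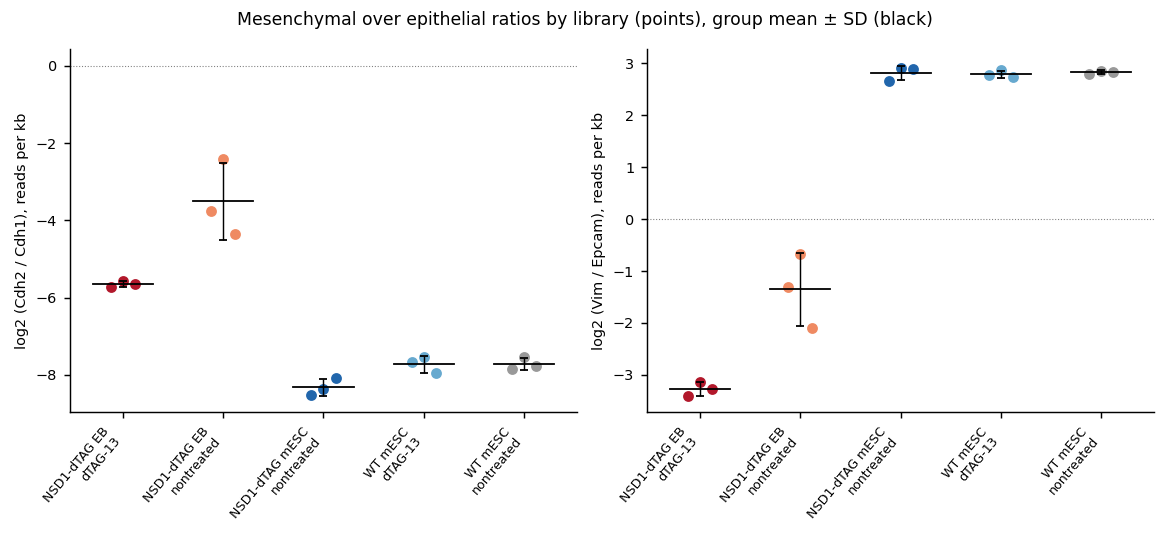
Log2 ratio of Cdh2 to Cdh1 (left) and of Vim to Epcam (right), from reads per kilobase of merged exon, in each library (points) of the 5 groups (x axis), with group means ± SD in black (n = 3). The dTAG-13 EBs lie at -5.64 and -3.27, below the nontreated EBs at -3.51 and -1.35.

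Per kilobase, Cdh1 was the highest of the 10 genes in dTAG-13 EBs (168 ± 4.10 CPM per kb), followed by Epcam (145 ± 14.7), Vim (15.02 ± 1.97) and Grhl2 (6.14 ± 0.767), each above the next in all libraries. Snai1 (3.42 ± 0.354) and Cdh2 (3.38 ± 0.268) overlapped, and Twist1 (2.40 ± 0.448) and Zeb2 (0.554 ± 0.232) came below them. Zeb1 (0.256 ± 0.0557) and Snai2 (0.195 ± 0.120), the lowest 2, overlapped. In nontreated EBs Cdh1 (121 ± 20.1) and Epcam (119 ± 14.9) overlapped and stood above Vim (48.2 ± 16.7), while Cdh2 (11.8 ± 6.56), Snai1 (11.6 ± 6.74), Twist1 (8.82 ± 2.5) and Grhl2 (7.59 ± 0.420) each overlapped the next. In NSD1-dTAG mESCs Vim (86.2 ± 9.57) and Cdh1 (85.0 ± 9.87) overlapped at the top, and Zeb2 (0.00889 ± 0.00479) was the lowest of the 10 in all 3 mESC groups. In WT mESCs Cdh1 stood above Vim without overlap, at 102 ± 2.94 and 94.9 ± 3.72 with dTAG-13 and at 103 ± 2.16 and 96.0 ± 4.2 in nontreated cells. The merged exons of Zeb2 span 19.9 kb over all its annotated transcripts, so its level per kb is understated if shorter forms are used.

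The knock-in line was set against WT mESCs, both nontreated, to see whether the tag itself goes with other levels of these genes. None of the 8 genes that passed the count filter was called, in a comparison where edgeR called 1.86% of 13895 genes, 0.547% as higher and 1.32% as lower. The unadjusted edgeR p was below 0.05 for 2 of the 8 genes, and for 1957 of all 13895 genes tested. Zeb2 and Twist1 were below the filter. Cdh2 had 1.62, 2.19 and 2.73 CPM in NSD1-dTAG mESCs, against 3.54, 4.48 and 3.90 CPM in nontreated WT mESCs (log2 fold change -0.82 ± 0.20, edgeR adjusted p = 0.103). The values did not overlap, as also for Cdh1 (-0.22 ± 0.09, edgeR adjusted p = 0.318) and Grhl2 (-0.52 ± 0.24, edgeR adjusted p = 0.415), all lower in the tagged line. Of all genes tested 23% did not overlap, 6.07% higher and 16.9% lower.

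With the replicate block (same-numbered libraries deviated together here too), Cdh2 was called (log2 fold change -0.84 ± 0.16, edgeR adjusted p = 0.0328). Without NSD1-dTAG library 1, which stands apart, Cdh2 was called at -0.66 (edgeR adjusted p = 0.0396). Without library 1 of both groups Cdh2 (-0.76 ± 0.18), Cdh1 (-0.17 ± 0.03), Vim (-0.21 ± 0.04) and Epcam (-0.26 ± 0.07) were called as lower. That fit called 3123 of all 13762 genes tested, 1536 of them as lower. NSD1-dTAG mESCs are also the group against which the nontreated EBs were set. Of 9 other intermediate filament and nuclear envelope genes, Nes (-1.02 ± 0.10), Ina (-0.89 ± 0.11) and Nefl (-1.25 ± 0.21) were lower in NSD1-dTAG mESCs and Lmna higher (0.63 ± 0.08). Of 21 epithelial junction genes, Cldn6 (-1.25 ± 0.15) and the desmosomal gene Pkp2 (-0.50 ± 0.09) were lower and 0 higher, and in the other 7 lists 0 genes were called.

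WT mESCs with and without dTAG-13 show what 72 h of the compound does in untagged stem cells, and not in untagged EBs. None of the 8 genes tested was called and 0% of the 13784 genes tested were. At an unadjusted p below 0.05 edgeR had 0 of the 8 genes and 229 of all genes, and DESeq2 also called 0. Log2 fold changes lay between -0.07 for Zeb1 and 0.12 for Snai1. Vim had 434, 447 and 469 CPM in WT mESCs with dTAG-13, against 456, 475 and 435 CPM in nontreated WT mESCs. Snai1 had 2.80, 2.86 and 3.25 CPM in WT mESCs with dTAG-13, against 2.72, 2.51 and 2.99 CPM in nontreated WT mESCs. The values of both groups overlapped for all 10 genes, where 6.06% of all genes tested did not overlap, 3.38% higher and 2.68% lower. The nontreated WT mESCs are the same 3 libraries as in the knock-in comparison.

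The difference between the 2 responses to dTAG-13, that in NSD1-dTAG EBs minus that in WT mESCs, was tested as an interaction over 12 libraries. Vim (-1.68 ± 0.27, edgeR adjusted p = 0.00602) and Snai1 (-1.89 ± 0.46, edgeR adjusted p = 0.0461) passed, 2 of 10 against 2.88% of the 15855 genes tested, 1.6% as higher and 1.27% as lower. Cdh2 (-1.80 ± 0.47, edgeR adjusted p = 0.059), Zeb1 (-1.49 ± 0.39, 0.0644) and Twist1 (-2.01 ± 0.59, 0.0983) did not. With the replicate block all 5 passed (edgeR adjusted p between 0.00497 and 0.0354). That block gives each replicate number the same effect in EBs and WT mESCs. Same-numbered WT libraries did not deviate together (r = -0.54, 0.46 and -0.45), so the block is not a sound pairing for this contrast. Vim passed with any of the 12 libraries left out, and Snai1 passed only without nontreated EB library 2 (edgeR adjusted p = 0.0321) or 3 (0.00268), with 0.0576 to 0.121 without any other. The contrast joins the tag, the stage and the length of treatment, which cannot be told apart.

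Genes whose pattern over the 15 libraries was most like that of a member were also sought. The measure was the mean absolute difference of log2(CPM + 1), with CPM scaled by TMM factors and values centred per gene. Only genes with a mean CPM of 10 or more were searched, without clone, model, pseudogene or unnamed symbols. For Vim the most alike were Cabp1 (0.202) and Bmp4 (0.222), for Cdh2 Arhgef26 (0.263) and Dapk1 (0.30), for Snai1 Lrig3 (0.239) and Hmga2 (0.263), and for Cdh1 Tfe3 and Dsn1 (0.092 each). On the same scale the SD over the libraries was 1.15 for Vim, 1.85 for Cdh2, 0.912 for Snai1 and 0.291 for Cdh1. The 15 libraries are of mESCs and of EBs, and genes that differ alike between these stages come out as alike. This measure is therefore a description.

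Exons of 3 of the genes overlap other annotated genes. Zeb2 overlaps its antisense transcript Zeb2os, whose own counts came to 3.81% of those of Zeb2, Grhl2 overlaps the antisense gene Gm16136 (2.85%) and Zeb1 overlaps Gm10125 on the opposite strand (0.351%). The strand counted is not given in the sources used here, so reads of these pairs cannot be fully told apart. The other 7 genes overlap no annotated exon.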

How the data were processed

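Per the labels' protocols, ERCC spike-ins were added and the kit kept the strand. The authors deposited unnormalised read counts, 1 table per library with 55471 gene IDs and 92 spike-ins. Tools in the submitters' processing notes are bcl2fastq 2.20.0.422, STAR (no version) and DESeq2 1.30.0, with builds GRCm38.p6 and mm10. How reads were counted, on which strand and with which annotation, is not stated there. With version numbers removed, 55230 IDs matched GENCODE M21, and the 241 others took up to 0.002% of counts. Spike-ins were left out of library totals, and EB libraries had none.

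The test was edgeR 4.0.16 in R 4.3.3 (quasi-likelihood F, TMM, filterByExpr), with Benjamini-Hochberg adjustment over all genes past the filter and a threshold of 0.05. Each fit used the libraries of the groups compared, 12 for the interaction. CPM are counts over a library's gene total, and fold changes are log2 ± SE of the contrast. The script was tested on simulated counts. Alternatives were other size factors, no filter, DESeq2 1.42.0, a fit of all 15 libraries, a replicate block, an offset for gene length, spike-in scaling (mESCs) and leaving out libraries. Leaving out the libraries that stand apart was chosen after seeing the data.

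Same-numbered libraries deviated together between the EB groups (r = 0.29, 0.42 and 0.47) and between NSD1-dTAG and WT mESCs (0.81, 0.54 and 0.52). Some libraries of unlike number did so as well. These were dTAG-13 EB library 1 with nontreated EB library 2 (0.36), and NSD1-dTAG libraries 2 and 3 with WT libraries 3 and 2 (0.46 and 0.42). In these comparisons the libraries that stand apart have the same number in both groups. The labels state no pairing, so the replicate block is an assumption. Same-numbered libraries did not deviate together for dTAG-13 in WT mESCs (-0.54, 0.46 and -0.45) or EBs against mESCs (-0.34, 0.29 and -0.49). No 2 replicates agreed within sampling noise (chi-square over degrees of freedom 1.47 to 96.1).

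The 10 genes and the 9 gene lists were chosen with earlier results of these data known. The text names every member. From each list it names up to 3 called genes by p-value, or the most abundant gene where none was called, fewer where space was short. A few further called genes and markers were named after their values were seen. Python 3.11.15 with pandas 2.3.3 and numpy 2.4.6 made the tables, matplotlib 3.10.9 the plots.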

Additional observations from a re-analysis of the deposited data

Results flagged for a closer look

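The response of Vim to dTAG-13 differed between NSD1-dTAG EBs and WT mESCs by -1.68 on the log2 scale. That of Snai1 differed by -1.89. Both passed the edgeR test of the difference itself (adjusted p = 0.00602 and 0.0461), which is why they are listed. With 1 library left out in turn, Vim passed in all 12 fits. Snai1 passed in only 2 of these 12 (edgeR adjusted p up to 0.121). Vim had a log2 fold change of -1.69 in EBs and -0.02 in WT mESCs, and Snai1 had -1.77 in EBs and 0.12 in WT mESCs. Vim was lower in 3 of 3 dTAG-13 EB libraries than in any nontreated one, and so was Snai1, as were 11.6% of all genes tested. Stage, line and treatment (6 days in EBs, 72 h in mESCs) differ together between the 2 contrasts and cannot be told apart.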

How the results depend on the processing

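For EBs against mESCs the 8 calls held in all 14 alternatives. Of 140 alternative values for the 10 genes, 138 kept direction and side of the threshold and the other 2 added a call of Cdh1. With dTAG-13 in EBs, Vim and Twist1 were called in all 14. Cdh2 was called in 11, Snai1 and Zeb1 in 9 each, Cdh1 in 5, Grhl2 in 4, Zeb2 in 1, and Epcam and Snai2 in 0. Genes called there numbered 1626 with DESeq2, 1931 with all 15 libraries in one fit, 1834 with the replicate block, 1849 with the block and the length offset, 3233 without the libraries that stand apart and 182 to 1293 with 1 library left out (1030 as reported). The low counts were 182 and 301 without nontreated EB libraries 2 and 1, and 184 and 395 without dTAG-13 libraries 1 and 2. Members called were 8 with the block and the length offset, which added Zeb2, Cdh1 and Grhl2, and 2 to 5 with 1 library left out. Snai2 ranged over -0.76 to 0.0023 with 1 left out. For NSD1-dTAG against WT mESCs 259 genes became 528 with DESeq2, 500 with all 15 libraries, 785 with the replicate block, 655 with the length offset, 1391 with both, 1 with spike-in scaling, 3123 without the libraries that stand apart and 1 to 1248 with 1 left out (1248 without NSD1-dTAG library 1, at most 12 without any other). Members called were 1 with DESeq2, 1 with the block, 1 with the length offset, 2 with both, 4 without the libraries that stand apart and 0 to 1 with 1 left out. With 1 left out, uncalled members that changed sign were Epcam (-0.27 to 0.047), Snai1 (-0.14 to 0.058) and Zeb1 (-0.0125 to 0.26).

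For dTAG-13 in WT mESCs 16 genes were called without the libraries that stand apart, none of them a member. Values near 0 changed sign for Cdh2 (0.014 with the length offset, 0.017 with block and offset, 0.065 with spike-in scaling, 0.025 without the libraries that stand apart) and Epcam (-0.0056 with the offset, -0.0044 with block and offset, -0.026 without the libraries that stand apart). Spike-in scaling, which moved the median of all genes to 0.065, gave 0.048 for Vim, 0.046 for Cdh1, 0.073 for Snai2 and 0.039 for Grhl2. Grhl2 was 0.11 without the libraries that stand apart. With 1 library left out the ranges were -0.057 to 0.018 for Vim, -0.039 to 0.011 for Cdh1, -0.10 to 0.12 for Cdh2, -0.27 to 0.14 for Snai2, -0.21 to 0.056 for Zeb1, -0.045 to 0.062 for Epcam and -0.14 to 0.11 for Grhl2. In the interaction 456 genes became 915 without the filter, 781 with DESeq2, 713 with block and length offset, 1897 without the libraries that stand apart and 202 to 763 with 1 left out. Members called (2 as reported) were 5 without the filter, 5 with DESeq2, 5 with the replicate block, 4 with the length offset, 5 with both, 4 without the libraries that stand apart and 1 to 5 with 1 left out. Snai2 was 0.45 without the libraries that stand apart and -0.75 to 0.0094 with 1 left out. The cause of these shifts was not tested. Depth limits Snai2 in all groups and Zeb2 and Twist1 in mESCs, where 1 to 13 counts per library lie behind each value.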
